A study of Mus musculus with 8 samples.

Results

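The integrated stress response was followed through 10 genes in 2-cell mouse embryos, namely the eIF2 kinase genes Eif2ak3 and Eif2ak4, the phosphatase subunit gene Ppp1r15a, the transcription factor genes Atf4, Atf3 and Ddit3, and the target genes Trib3, Sesn2, Chac1 and Asns. The members were every probe set of an Affymetrix mouse array whose single gene symbol in the platform annotation is one of these names, which gave 19 of the 45037 probe sets that are not controls. Brg1 mutant embryos (4 samples, replicates 1 to 4) were compared with wild type embryos (4 samples, replicates 1 to 4), each sample being RNA of 20 pooled whole embryos. The series title speaks of maternal BRG1, the ATPase of BAF chromatin remodelling complexes, and of activation of the zygotic genome. The mutant allele, any Cre driver, the strain, the hour of collection and any treatment are not given in the sources used here, nor is whether the pools shared mothers or collections, so p-values measure only the spread between these samples. The number of arrays limits the precision.

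In the integrated stress response, kinases that sense unfolded protein in the endoplasmic reticulum, lack of amino acids, double-stranded RNA or lack of haem phosphorylate the initiation factor eIF2. This lowers protein synthesis in general while translation of ATF4 mRNA goes up, so ATF4 is controlled largely at the level of its protein and its mRNA need not follow its activity. ATF4, with partners of the C/EBP family, binds composite C/EBP-ATF response elements and switches on genes of amino acid supply and of feedback. Mouse embryos switch on their own genome in earnest at the 2-cell stage, while much of the RNA they hold is still maternal, so a level at this stage mixes stored and newly made transcripts.

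RefSeq promoter windows (GRCm38.p6, 250 bases before to 50 after the annotated start) were at hand for all 10 genes, 11 windows in all, because Eif2ak4 has 2. The core of the C/EBP-ATF response element, TGATGNAA read on either strand, was found in the windows of 4 of the 10 genes, Atf3, Trib3, Asns and Chac1, and in 3.97% of all 32851 windows. The ER stress response element, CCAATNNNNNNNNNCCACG on either strand, was found in none of the 10 genes and in 0.119% of all windows. The stretches around the 4 core matches are shown because these genes are set against one another in the values that follow. Capitals mark the match, and each stretch is written 5′ to 3′ on the strand of its gene.
Atf3 (chr1:191183416-191183503, minus strand, bases -170 to -83 from the start): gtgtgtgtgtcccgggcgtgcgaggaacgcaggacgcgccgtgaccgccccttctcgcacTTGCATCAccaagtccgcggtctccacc
Trib3 (chr2:152344019-152344106, minus strand, bases -46 to 42): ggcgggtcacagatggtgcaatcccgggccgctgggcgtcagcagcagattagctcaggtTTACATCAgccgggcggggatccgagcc
Asns (chr6:7693205-7693292, minus strand, bases -83 to 5): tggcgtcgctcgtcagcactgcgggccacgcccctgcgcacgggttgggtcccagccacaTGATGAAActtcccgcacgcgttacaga
Chac1 (chr2:119350992-119351076, plus strand, bases -250 to -166): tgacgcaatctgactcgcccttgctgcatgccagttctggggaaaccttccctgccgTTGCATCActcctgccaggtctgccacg
In Asns the core reads along the gene, and in Atf3, Trib3 and Chac1 it reads on the opposite strand, where it is spelled TGATGCAA, TGATGTAA and TGATGCAA. A match describes these letters and is not a site shown to be bound.

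**Figure D1:**
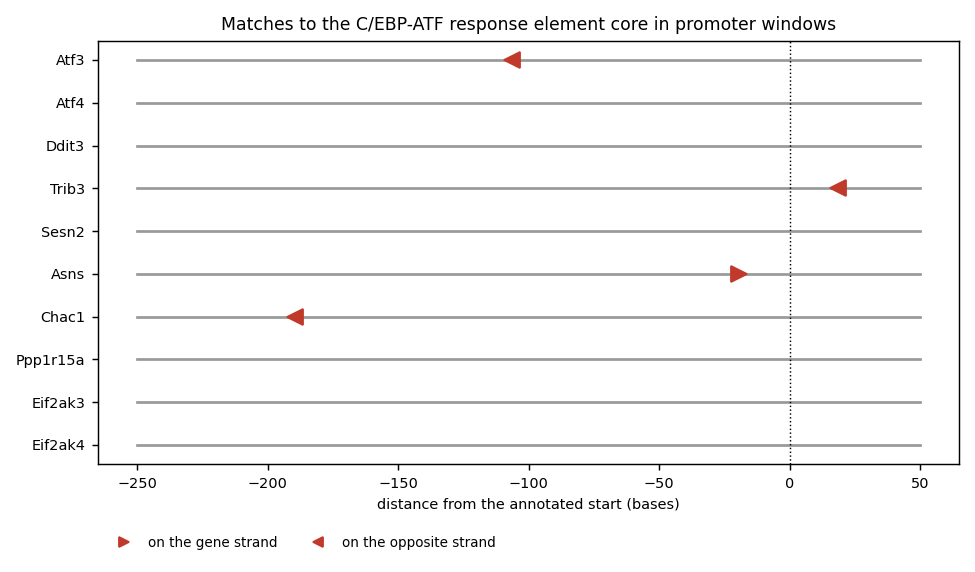
Position of each match to the C/EBP-ATF response element core in the promoter windows of the 10 genes, as distance in bases from the annotated start (dotted line), with arrowheads for the strand; both windows of Eif2ak4 share a line. The matches lie at -110 to -103 in Atf3, 15 to 22 in Trib3, -23 to -16 in Asns and -193 to -186 in Chac1.

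All arrays carried the same trimmed mean, 150 units of signal, and a bound on background was taken per array from control probe sets for Bacillus transcripts, at 14.7 to 37.7 in mutants and 16.4 to 31 in wild type. Of a list of 13 2-cell and maternal markers 10 were measured, and all 10 were above this bound on every array. Their summed signal was 29150 and 33591 on mutant replicates 1 and 2 and 18590 and 17352 on mutant replicates 3 and 4. In wild type it was 15635 to 21407. The mutant arrays did not form 1 group. The summed signal of 17 granulosa and cumulus cell markers was 22987 and 19342 in mutant replicates 3 and 4, 2818 and 1721 in mutant replicates 1 and 2, and 2630 to 3453 in wild type. Of these 17 markers 10 were higher on both mutant replicates 3 and 4 than on any other array, and 7 were not, namely Cyp11a1, Amh, Amhr2, Has2, Ptx3, Ptgs2 and Nr5a2. Spike-in controls summed to 4.81 and 3.37 times the wild type mean on mutant replicates 1 and 2, to 1.24 and 0.713 times on mutant replicates 3 and 4, and to 0.749 to 1.23 times on wild type arrays. The 3 prime to 5 prime signal ratio of actin was 12.9 and 15 on mutant replicates 1 and 2, 7.04 and 4.88 on mutant replicates 3 and 4, and 16.3 to 21.1 in wild type, and that of Gapdh was 6.63 to 7.33 in mutants and 8.58 to 10.1 in wild type. The results are therefore given for all 8 arrays and for each mutant pair, whose comparisons share the same wild type arrays, and the part of these array measures in them was not tested. In such pooled RNA, fewer cells of a type and less RNA per cell cannot be told apart. Smarca4, which encodes BRG1, fell on its brighter probe set to 387.5, 200.9, 273 and 291.3 in mutants, against 796, 632.1, 612.1 and 660.6 in wild type (log2 change -1.26, SE 0.25, limma adjusted p = 0.0211), and its other probe set did not pass (limma adjusted p = 0.963). With single arrays left out the Smarca4 call held in 2 of 8 fits (limma adjusted p up to 0.0834).

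Of the 15 member probe sets bright enough to be tested, 1 rose, 4 fell and 10 did not pass the test in Brg1 mutant embryos. Those called were Atf3, higher, and Eif2ak4, Sesn2 and both probe sets of Trib3, lower. The 5 called probe sets are 33.3% of the 15, where 6.56% of all 22518 tested probe sets were called, 2.98% as higher and 3.58% as lower. These 5 probe sets belong to 4 genes. The members were chosen with earlier results of these data known, so their share is not independent evidence. The members' median log2 change was -0.68, and that of all tested probe sets -0.05. Mutant and wild type signals did not overlap for 10 of the 15, 4 higher and 6 lower in mutants, where 17.5% of all tested probe sets were without overlap. Against wild type, mutant replicates 1 and 2 gave 2 higher and 3 lower of the 15 (6.71% of all tested probe sets called, 3.6% higher and 3.11% lower), and mutant replicates 3 and 4 gave 3 higher and 9 lower (41.6% called, 18.3% higher and 23.2% lower).

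**Figure D2:**
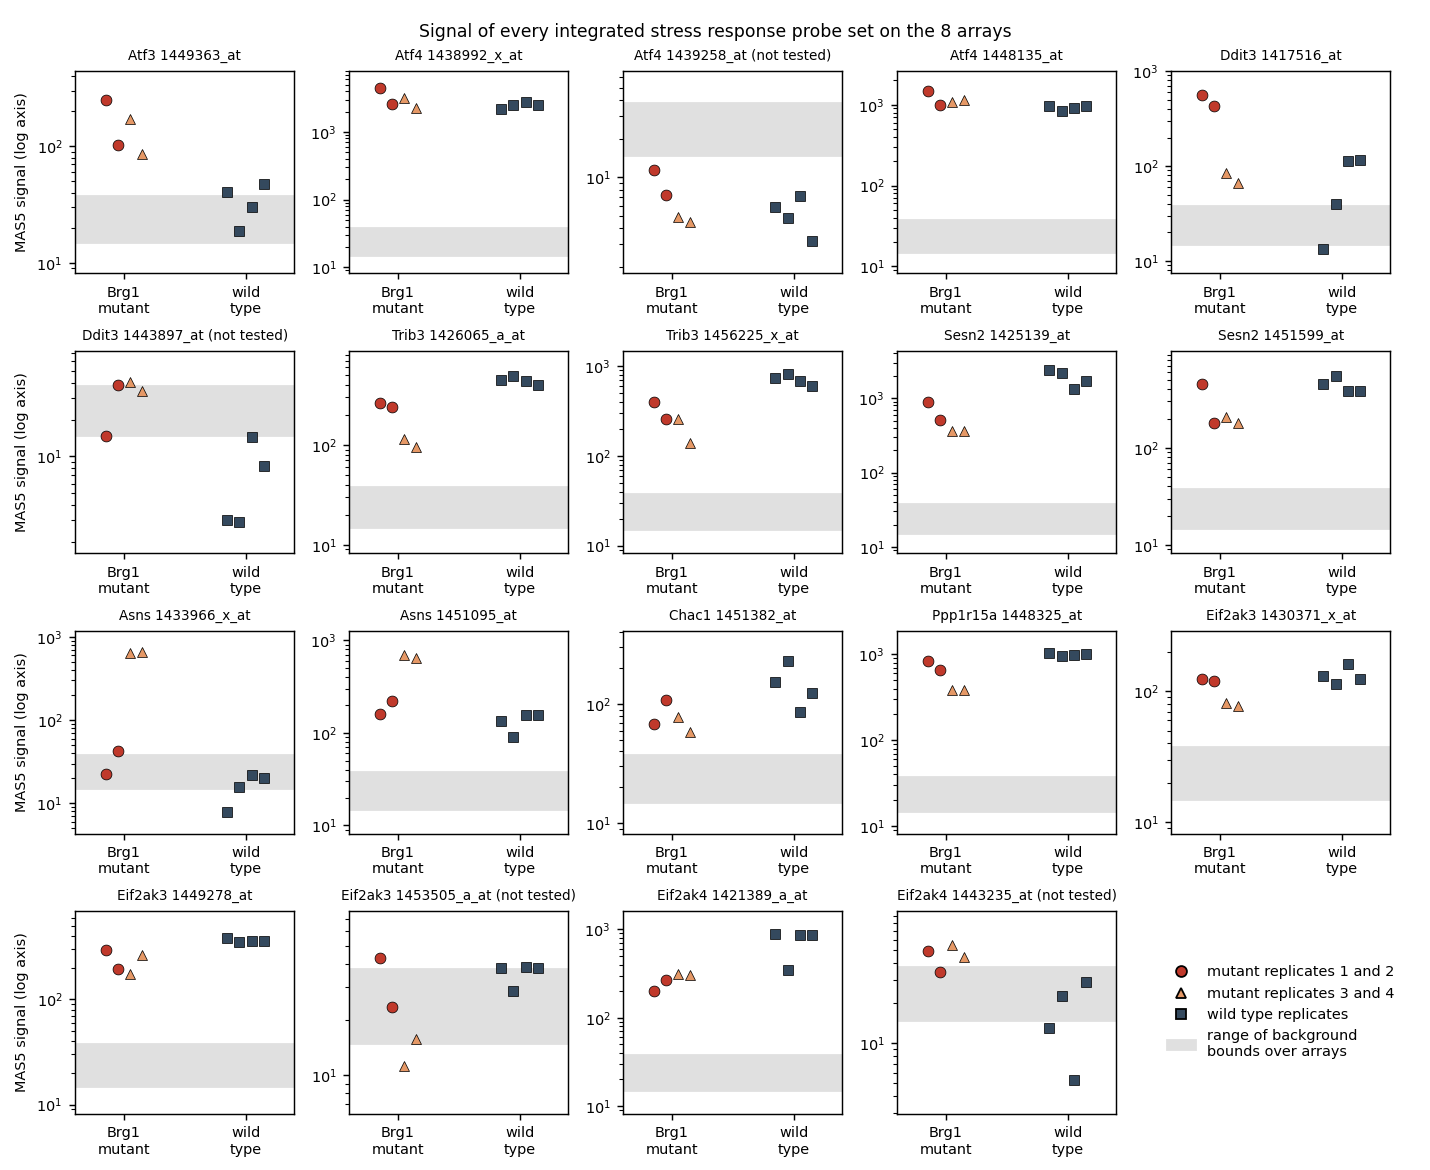
MAS5 signal (log axis) of all 19 member probe sets on every array, with Brg1 mutants on the left of each panel and wild type on the right; the grey band is the range of the background bound over the arrays. Sesn2 (1425139_at) and both Trib3 probe sets lie lower in all 4 mutants than in any wild type sample, Atf3 lies higher, and Asns is high on mutant replicates 3 and 4, whereas Ddit3 (1417516_at) is high on mutant replicates 1 and 2.

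Transcripts of the amino acid sensing kinase fell. Eif2ak4 encodes GCN2, which is activated by uncharged tRNA, and on probe set 1421389_a_at it read 198.7, 270.9, 316 and 301.9 in mutant embryos, against 896.5, 344.3, 857.8 and 872.3 in wild type. Wild type replicate 2 lay far below the other wild type samples and still above every mutant sample. The change was 2.59-fold downward (log2 change -1.37, SE 0.34, limma adjusted p = 0.0397), with means of 272 ± 52.3 in mutants and 743 ± 266 in wild type (SD, n = 4 each). It was of like size in both mutant pairs, with log2 changes of -1.58 (SE 0.40, limma adjusted p = 0.0456) for replicates 1 and 2 and -1.17 (SE 0.37, limma adjusted p = 0.0321) for replicates 3 and 4. The call was lost without wild type replicate 1, 3 or 4 (limma adjusted p = 0.124, 0.115 and 0.120) and without mutant replicate 1, 3 or 4 (limma adjusted p = 0.0546, 0.0737 and 0.0784). It was also lost with no filter on dim probe sets (limma adjusted p = 0.0545), with no intensity trend (limma adjusted p = 0.0519) and with the replicate number as a block (limma adjusted p = 0.0926). Over 19 alternatives the limma adjusted p ranged from 0.000372 to 0.124. The other Eif2ak4 probe set, 1443235_at, was too dim to be tested and ran the other way, at 49.7, 34.2, 54.9 and 44.3 in mutants, against 13.1, 22.5, 5.3 and 29.1 in wild type, and it was above the background bound on 3 mutant arrays and 1 wild type array.

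Eif2ak3 encodes PERK, the eIF2 kinase of the endoplasmic reticulum membrane, and none of its probe sets passed. The brightest, 1449278_at, read 297.9, 194.3, 172.7 and 264.1 in mutants, against 384.2, 353.6, 356.9 and 360.7 in wild type. All 4 mutant samples lay below the narrow wild type range (log2 change -0.68, SE 0.24, limma adjusted p = 0.112). Against wild type the log2 change was -0.60 (SE 0.26, limma adjusted p = 0.181) in mutant replicates 1 and 2 and -0.77 (SE 0.22, limma adjusted p = 0.0204) in replicates 3 and 4. Probe set 1430371_x_at read 124.8, 119.5, 81.4 and 77.5 in mutants, against 130.7, 114.4, 161.4 and 124.9 in wild type, and the groups overlapped (log2 change -0.42, limma adjusted p = 0.362). The suffix _x_at is the maker's sign for a probe set that may also match other transcripts. The third, 1453505_a_at, lay near the background bound, from 11.2 to 42.8 in mutants and from 28.7 to 38.3 in wild type.

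The haem-regulated kinase gene Eif2ak1 and the kinase gene Eif2ak2, whose product PKR binds double-stranded RNA, did not pass on any tested probe set. Eif2ak2 read 61.5, 55.6, 120.5 and 111.3 in mutants, against 54.8, 51.5, 37.6 and 54 in wild type (log2 change 0.75, limma adjusted p = 0.199). All mutant samples were above the wild type range, replicates 1 and 2 by little and replicates 3 and 4 by more (limma adjusted p = 0.00650 for these and 0.673 for replicates 1 and 2). The 3 tested probe sets of Eif2ak1 differed among themselves, with log2 changes of -0.01, 0.77 and -0.54 (limma adjusted p = 0.981, 0.138 and 0.336). Impact, an inhibitor of GCN2 activation, had the smallest adjusted p of the 6 tested kinase regulators and other kinases (log2 change 1.45, limma adjusted p = 0.107), and its groups overlapped. Of these 6 genes limma called 0, where 7.04% of all genes were called at 1 probe set a gene. At an unadjusted p under 0.05 stood 1 of them, and the share of all genes there is not given.

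The exchange factor eIF2B recharges eIF2 with GTP and is blocked by phosphorylated eIF2, and of the 5 genes of its subunits 2 fell and 3 did not pass. Eif2b4, the delta subunit, fell to 443.9, 318.7, 400.7 and 485.9 in mutants, against 1213.2, 1455.6, 982.4 and 880.1 in wild type. That was a 2.73-fold fall with no overlap (log2 change -1.45, SE 0.25, limma adjusted p = 0.0145), and it passed in both mutant pairs (limma adjusted p = 0.0159 for replicates 1 and 2 and 0.00179 for replicates 3 and 4). Eif2b1, the alpha subunit that takes part in sensing phosphorylated eIF2, fell 1.73-fold, with 757.5, 671.4, 668.1 and 798 in mutants, against 1173.4, 1231.7, 1409.1 and 1195.4 in wild type (log2 change -0.79, SE 0.20, limma adjusted p = 0.0430). In mutant replicates 1 and 2 alone Eif2b1 missed the threshold at nearly the same size (log2 change -0.81, limma adjusted p = 0.0505). The other subunit genes, Eif2b2, Eif2b3 and Eif2b5, had log2 changes of -0.08, 0.18 and -0.24 (limma adjusted p = 0.898, 0.818 and 0.686), and their groups overlapped. Of 14 tested eIF2, eIF2B and phosphatase genes 2 fell, 0 rose and 12 did not pass, where 7.04% of 11934 genes were called at 1 probe set a gene, and the list's median log2 change was -0.22 beside -0.05 over those genes.

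Ppp1r15a encodes GADD34, the inducible subunit that brings protein phosphatase 1 to eIF2 and ends the response. It read 846.4, 653.9, 386.4 and 389.3 in mutants, against 1040.4, 959.5, 975.1 and 1019.6 in wild type. Wild type samples were tightly grouped and every mutant sample was lower, most of all replicates 3 and 4. Over all arrays the difference did not pass (log2 change -0.89, SE 0.28, limma adjusted p = 0.0844). The log2 change was -0.42 (SE 0.22, limma adjusted p = 0.256) in mutant replicates 1 and 2 and -1.36 (SE 0.16, limma adjusted p = 0.000243) in replicates 3 and 4, and the gene also passed without mutant replicate 1 (limma adjusted p = 0.0258) and under median centring (limma adjusted p = 0.0399) and array weights, within a range of 8.01e-05 to 0.256 over 19 alternatives. The constitutive counterpart Ppp1r15b, also known as CReP, did not pass on either probe set (log2 changes -0.24 and -0.90, limma adjusted p = 0.604 and 0.204).

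Atf4 mRNA showed no change that passed. On probe set 1438992_x_at it read 4459.6, 2603.3, 3218.9 and 2288.3 in mutants, against 2181.1, 2454.4, 2803.4 and 2462.5 in wild type, with mutant replicate 1 highest (log2 change 0.30, SE 0.26, limma adjusted p = 0.506). Probe set 1448135_at read 1472.1, 986.5, 1096.7 and 1136.9 in mutants, against 955.5, 839.1, 923.3 and 964.8 in wild type. There every mutant sample was above every wild type sample, by a small margin (log2 change 0.34, SE 0.21, limma adjusted p = 0.358). Neither probe set passed in any of 19 alternatives, with limma adjusted p from 0.138 to 0.774. The remaining probe set, 1439258_at, read at most 11.3 and was under the background bound on all 8 arrays.

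Atf3 was the member that rose. It encodes a bZIP factor induced by ATF4 that acts mainly as a repressor, and its single probe set read 247.2, 103.6, 171.8 and 86.6 in mutants, against 40.3, 18.7, 30.1 and 47.7 in wild type. The lowest mutant sample was above the highest wild type sample, and wild type replicate 2 was under the background bound. Its mean log2 signal was 5.01 in wild type, under the 5.25 needed for testing, and 7.13 in mutants. It was thus tested only because its mutant arrays raised the mean. The rise was 4.33-fold (log2 change 2.12, SE 0.42, limma adjusted p = 0.0213), with means of 152 ± 73.2 in mutants and 34.2 ± 12.6 in wild type (SD, n = 4 each). It passed in both pairs, with log2 changes of 2.31 (SE 0.49, limma adjusted p = 0.0257) for mutant replicates 1 and 2 and 1.92 (SE 0.45, limma adjusted p = 0.00794) for replicates 3 and 4. The call was lost without any single wild type replicate, 1 to 4 in order (limma adjusted p = 0.0659, 0.0562, 0.0670 and 0.0571), and without mutant replicate 3 (limma adjusted p = 0.0597). It was also lost with the replicate number as a block (limma adjusted p = 0.0676), and it held with no filter on dim probe sets (limma adjusted p = 0.0323). The limma adjusted p ranged from 0.00059 to 0.0676 over the 18 alternatives in which Atf3 was bright enough to be tested.

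Ddit3, which encodes CHOP, the bZIP factor that drives the proapoptotic branch of a prolonged response, separated the mutant pairs on its brighter probe set. Probe set 1417516_at read 562.3 and 428.1 on mutant replicates 1 and 2, 84.3 and 66.3 on mutant replicates 3 and 4, and 13.4, 39.5, 112.5 and 116 in wild type. The first pair was high and the second lay within the wild type range. Wild type samples themselves spread widely, and replicate 1 was under the background bound. Over all arrays Ddit3 did not pass (log2 change 1.90, SE 0.85, limma adjusted p = 0.189). Mutant replicates 1 and 2 gave a log2 change of 3.26 (SE 0.76, limma adjusted p = 0.0352) and replicates 3 and 4 one of 0.54 (SE 0.78, limma adjusted p = 0.600), within a range of 0.0352 to 0.700 over 19 alternatives. On the arrays where Ddit3 was high the spike-in controls were high as well, at 4.81 and 3.37 times the wild type mean. The summed signal of 2-cell and maternal markers was also highest there, at 29150 and 33591, and the part of either was not tested. The dim probe set 1443897_at read 14.6, 38.6, 40.6 and 34.3 in mutants, against 3, 2.9, 14.3 and 8.4 in wild type, with every wild type array under the bound and 3 mutant arrays above it. It was at least 1.23-fold higher in mutants and too dim to be tested, and it did not show the split of the mutant pairs.

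Trib3 fell on both probe sets. It encodes a pseudokinase that is switched on by ATF4 and CHOP and feeds back on them, and its promoter stretch with the core match is printed above. Probe set 1456225_x_at read 400.4, 261, 257.3 and 138.5 in mutants, against 743.5, 825.8, 691.5 and 606.3 in wild type. Probe set 1426065_a_at read 261.7, 242.9, 113.9 and 95.2 in mutants, against 452.7, 490.3, 443 and 404.7 in wild type. On each the highest mutant sample was well below the lowest wild type sample. The falls were 2.88-fold (log2 change -1.53, SE 0.31, limma adjusted p = 0.0231) and 2.76-fold (log2 change -1.46, SE 0.35, limma adjusted p = 0.0356). In mutant replicates 1 and 2 the log2 changes were -1.14 (limma adjusted p = 0.0344) and -0.82 (limma adjusted p = 0.0605), and in replicates 3 and 4 they were -1.92 (limma adjusted p = 0.000532) and -2.10 (limma adjusted p = 7.67e-05). Both calls were lost without any single wild type replicate and without mutant replicate 3 or 4 (limma adjusted p = 0.0503 to 0.102), and that of 1426065_a_at also under quantile normalization (limma adjusted p = 0.0528). With the replicate number as a block both were lost as well (limma adjusted p = 0.0680 for 1456225_x_at and 0.0766 for 1426065_a_at).

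Sesn2 had the lowest log2 change of the called members, on its brighter probe set. It encodes sestrin 2, a leucine sensor that restrains TORC1 and is induced by ATF4 and by p53. Probe set 1425139_at read 889.2, 510, 358.5 and 358.8 in mutants, against 2413.6, 2160, 1342.1 and 1691.1 in wild type. The groups were far apart, and mutant replicates 3 and 4 were the lowest. The log2 change was -1.92 (SE 0.33, limma adjusted p = 0.0157), with means of 529 ± 250 in mutants and 1902 ± 478 in wild type (SD, n = 4 each). It passed in both pairs, at -1.46 (SE 0.31, limma adjusted p = 0.0262) in mutant replicates 1 and 2 and -2.37 (SE 0.24, limma adjusted p = 0.000109) in replicates 3 and 4. The call was lost without wild type replicate 1 or 4 (limma adjusted p = 0.0626 and 0.0565) and with the replicate number as a block (limma adjusted p = 0.0573). Over 19 alternatives the limma adjusted p ranged from 2.29e-05 to 0.0626. Probe set 1451599_at read 454.9, 180, 206.1 and 180.7 in mutants, against 457.6, 553.4, 385.9 and 388.4 in wild type. There mutant replicate 1 lay within the wild type range and the other 3 mutants below it (log2 change -0.91, SE 0.32, limma adjusted p = 0.114), and without mutant replicate 1 it passed (log2 change -1.23, limma adjusted p = 0.0161).

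Chac1, a glutathione-degrading enzyme gene and an ATF4 target, did not pass. It read 68.1, 109, 77.9 and 58.3 in mutants, against 153.3, 228.5, 85.7 and 123.9 in wild type. Of the mutants only replicate 2 reached into the wild type range (log2 change -0.87, SE 0.35, limma adjusted p = 0.149). In the mutant pairs the log2 change was -0.69 (limma adjusted p = 0.309) for replicates 1 and 2 and -1.04 (limma adjusted p = 0.0482) for replicates 3 and 4.

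Asns, which encodes asparagine synthetase, ran opposite to Trib3, Sesn2 and Chac1, and its high values lay on mutant replicates 3 and 4. Probe set 1451095_at read 701.5 and 640.5 on mutant replicates 3 and 4, 160.9 and 220.6 on mutant replicates 1 and 2, and 132.9, 90.7, 156.3 and 157.7 in wild type. Probe set 1433966_x_at read 646.1 and 653.6 on mutant replicates 3 and 4, 22.6 and 42.1 on mutant replicates 1 and 2, and 7.8, 15.5, 21.6 and 20.4 in wild type. On both the second mutant pair stood apart, and the first was barely above wild type. Probe set 1433966_x_at was above the background bound on 1 of 4 wild type arrays and 3 of 4 mutant arrays, so the size of its log2 changes is uncertain, while 1451095_at was above it on all arrays. Probe set 1433966_x_at was tested only because mutant arrays raised its mean log2 signal, which was 3.93 in wild type and 7.15 in mutants. Over all arrays neither passed (log2 changes 1.44, SE 0.47, and 3.22, SE 1.03, limma adjusted p = 0.0929 and 0.0870). Without mutant replicate 1 both passed, at log2 changes of 1.82 and 4.10 (limma adjusted p = 0.0283 and 0.0237), and 1433966_x_at passed without mutant replicate 2 (limma adjusted p = 0.0447), within ranges of 7.20e-05 to 0.324 over 19 alternatives for 1451095_at and 3.22e-05 to 0.418 over 18 for 1433966_x_at. Mutant replicates 3 and 4 gave log2 changes of 2.35 (SE 0.26, limma adjusted p = 0.000182) and 5.42 (SE 0.43, limma adjusted p = 3.22e-05). Mutant replicates 1 and 2 gave 0.52 (SE 0.31, limma adjusted p = 0.324) and 1.02 (SE 0.74, limma adjusted p = 0.418). Granulosa marker signal was high on the same arrays, with sums of 22987 and 19342 on mutant replicates 3 and 4 beside 2818 and 1721 on replicates 1 and 2, and its part in the Asns values was not tested.

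**Figure D3:**
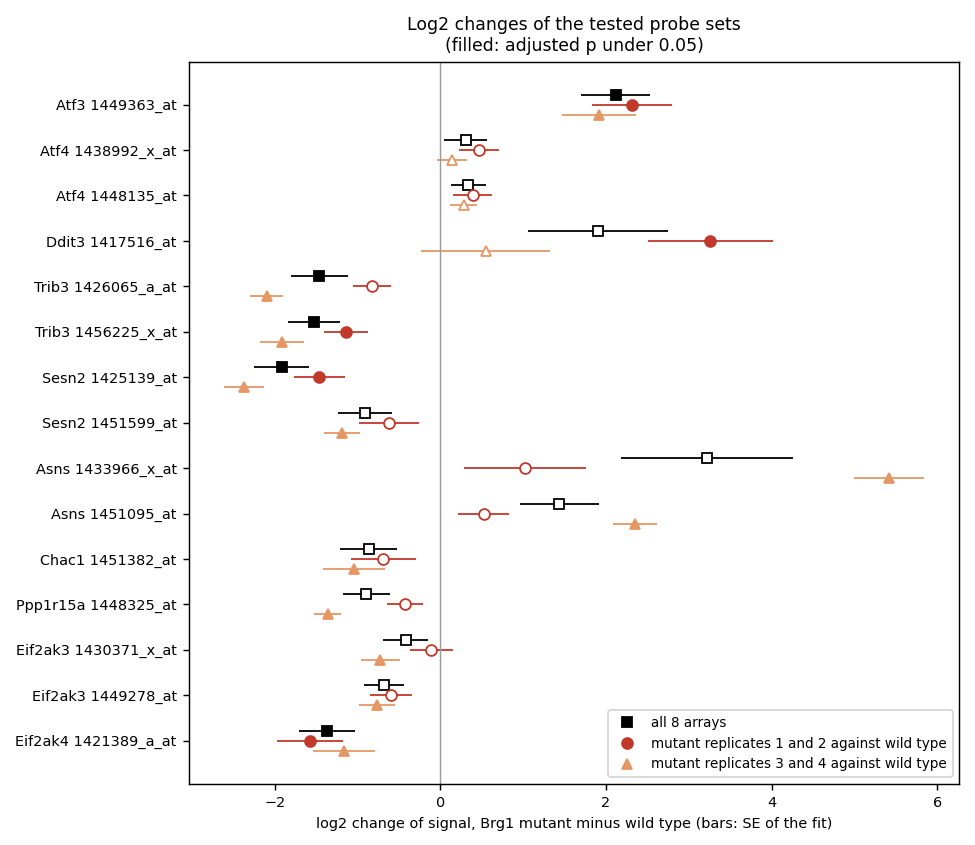
Log2 change of signal, Brg1 mutant minus wild type, for the 15 tested member probe sets, over all 8 arrays (squares), for mutant replicates 1 and 2 (circles) and for mutant replicates 3 and 4 (triangles), with bars for the SE of the fit and filled symbols for a limma adjusted p under 0.05. Atf3, Sesn2 (1425139_at), Eif2ak4 and Trib3 (1456225_x_at) are filled in all 3 fits, Ddit3 only in the first pair and Asns only in the second; all 3 fits use the same wild type arrays.

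The rest of the pathway was described by 8 lists of other genes, 101 tested genes in all. Of these, 8 rose, 4 fell and 89 did not pass, which is 11.9% called beside 7.04% of all genes, 3.01% higher and 4.03% lower, and their median log2 change was 0.21 beside -0.05 over all genes. The lists were chosen with earlier results of these data known and are not independent evidence of a direction. In mutant replicates 1 and 2, 6 were higher and 5 lower (7.44% of all genes called), and in replicates 3 and 4, 45 were higher and 17 lower (43.5% of all genes called).

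Among partners of ATF4 and related bZIP factors, 1 of 11 rose, 0 fell and 10 did not pass, where 7.04% of all genes were called. The gene that rose was Nupr1, a stress-induced chromatin protein that ATF4 switches on. On 1419666_x_at it read 2710.1 and 2345.6 on mutant replicates 3 and 4, 262.9 and 213.2 on mutant replicates 1 and 2, and 28.2, 74.8, 23.6 and 24.1 in wild type (log2 change 4.55, SE 0.83, limma adjusted p = 0.0179). Both pairs were above wild type, the second far more so, with log2 changes of 2.84 (limma adjusted p = 0.0143) and 6.25 (limma adjusted p = 2.05e-05). Its other probe set rose as well (log2 change 5.65, limma adjusted p = 0.0200). Of the 4 wild type arrays it was above the background bound on 2, and 1419666_x_at on 3.

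Of 8 tested ATF4 target genes of amino acid synthesis and folate metabolism 2 fell, 0 rose and 6 did not pass, where 7.04% of all genes were called. The list's median log2 change was -0.19, beside -0.05 over all genes. Cth, the cystathionine gamma-lyase that makes cysteine, fell 3.29-fold, with 423.7, 194.9, 190.2 and 261.8 in mutants, against 820.4, 572.7, 1081.9 and 950.5 in wild type (log2 change -1.72, SE 0.32, limma adjusted p = 0.0181). Gpt2, an alanine aminotransferase of mitochondria, fell 2.22-fold, with 353.3, 357.2, 354.2 and 353 in mutants, against 762.7, 946.9, 642.2 and 824.4 in wild type (log2 change -1.15, SE 0.21, limma adjusted p = 0.0179). On the probe sets just given both passed in either pair (limma adjusted p from 0.000656 to 0.0364). There mutant and wild type samples did not overlap, and mutant replicates 3 and 4 lay among or beside replicates 1 and 2. The 3 other Gpt2 probe sets had the same sign over all arrays without passing (limma adjusted p = 0.430, 0.186 and 0.102). They passed in mutant replicates 3 and 4 (limma adjusted p = 0.0221, 0.000695 and 0.00900) but not in replicates 1 and 2 (limma adjusted p = 0.987, 0.728 and 0.265). On 1434542_at and 1439029_at the groups overlapped.

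The amino acid transporters and the aminoacyl-tRNA synthetases among ATF4 targets held 0 calls by limma, of 9 and 13 tested genes, where 7.04% of all genes were called. They held 3 and 2 genes at an unadjusted p under 0.05. At that threshold stood 3 of 14 eIF2, eIF2B and phosphatase genes, 2 of 11 bZIP factors and 3 of 8 amino acid synthesis genes. The other ATF4 or CHOP targets gave 11 of 15 and the endoplasmic reticulum list 13 of 25. The share over all genes at that threshold is not given here. The transporter gene Slc7a3 read 72.5, 42, 93.2 and 89 in mutants, against 30.2, 35.3, 31.5 and 25.2 in wild type (log2 change 1.22, limma adjusted p = 0.0578). Lars, the leucyl-tRNA synthetase, read 1035.9 and 1095.7 on mutant replicates 3 and 4, 142.7 and 112.9 on replicates 1 and 2, and 80.3 to 113.5 in wild type (log2 change 1.97, limma adjusted p = 0.115). Slc38a2 and Sars likewise had their highest values on mutant replicates 3 and 4, at 293.1 and 218.7 and at 554.4 and 631.9. Lars, Slc38a2 and Sars stood high on the arrays on which Asns and the granulosa markers did, and the part of the granulosa signal was not tested. Slc7a3 was above its wild type range on mutant replicates 1 and 2 as well. In the fit of mutant replicates 3 and 4, 8 synthetase genes were higher and 1 lower and 5 transporter genes were higher and 2 lower, where 43.5% of all genes were called, and in that of replicates 1 and 2 none of either list was called.

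Of 15 other ATF4 or CHOP target genes 4 rose, 0 fell and 11 did not pass, with a median log2 change of 0.95, where 7.04% of all genes were called. In mutant replicates 1 and 2 the same list gave 2 higher and 2 lower and a median of 0.40, where 7.44% of all genes were called, and the genes that fell there were Ero1a, an oxidase of the endoplasmic reticulum (log2 change -1.39, limma adjusted p = 0.0386), and Ddr2, a collagen receptor (log2 change -1.35, limma adjusted p = 0.0431), both named after their values were seen. Atg12, of the autophagy conjugation system, rose 1.97-fold, with 721.8, 786.9, 595.4 and 576.8 in mutants, against 310.4, 321.2, 330.3 and 392.1 in wild type (log2 change 0.98, SE 0.21, limma adjusted p = 0.0285), and passed in both pairs. Ndrg1, a stress-responsive gene, rose 2.84-fold on its brightest probe set (limma adjusted p = 0.0264, and 0.0567 in mutant replicates 1 and 2), and on 1456174_x_at it was at least 8.52-fold higher in mutants, where all wild type arrays were under the bound (limma adjusted p = 0.000925). Eif4ebp1, a translation repressor that TORC1 phosphorylates, read 3553.5 and 2823.3 on mutant replicates 3 and 4, 548.3 and 547.6 on replicates 1 and 2, and 235.1 to 320.7 in wild type (log2 change 2.25, limma adjusted p = 0.0481). Of its other tested probe sets 1417562_at rose too (limma adjusted p = 0.0313) and 1417563_at did not pass (log2 change -0.10, limma adjusted p = 0.933). Vldlr, a lipoprotein receptor, read 49.4, 118, 363.9 and 324.5 in mutants, against 14.1, 12.2, 22.8 and 38.2 in wild type (log2 change 3.04, limma adjusted p = 0.0247). It was above the background bound on 1 of 4 wild type arrays, which leaves the size of that change uncertain, and did not pass in mutant replicates 1 and 2 (limma adjusted p = 0.0863).

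The IRE1 and ATF6 arms with the chaperones of the endoplasmic reticulum gave 3 of 25 genes that rose, 0 that fell and 22 that did not pass, at a median log2 change of 0.54. Over all genes 7.04% were called, 3.01% as higher, and the median log2 change was -0.05. Hsp90b1, the chaperone GRP94, rose 2.68-fold, with 1114.4, 1350.4, 2148.2 and 1718.1 in mutants, against 587.2, 489.2, 737.6 and 504.5 in wild type (log2 change 1.42, SE 0.26, limma adjusted p = 0.0185). Its other probe set, 1438040_a_at, also rose (limma adjusted p = 0.00827). The disulfide isomerase genes Pdia6 (4.37-fold, limma adjusted p = 0.0251) and Pdia3 (2.23-fold, limma adjusted p = 0.0384) were higher over all arrays, and neither passed in mutant replicates 1 and 2 (limma adjusted p = 0.0541 and 0.112). Their dimmer probe sets, 1430983_at and 1445330_at, did not pass (log2 changes -0.22 and -0.16). All 12 calls in the 8 lists kept their sign with any single array left out, but 0 of them stayed called without wild type replicate 1 or 4, 5 without wild type replicate 2, 3 without wild type replicate 3, 2 without mutant replicate 3 and 3 without mutant replicate 4, while 12 did without mutant replicate 1 or 2 (limma adjusted p up to 0.129).

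**Figure D4:**
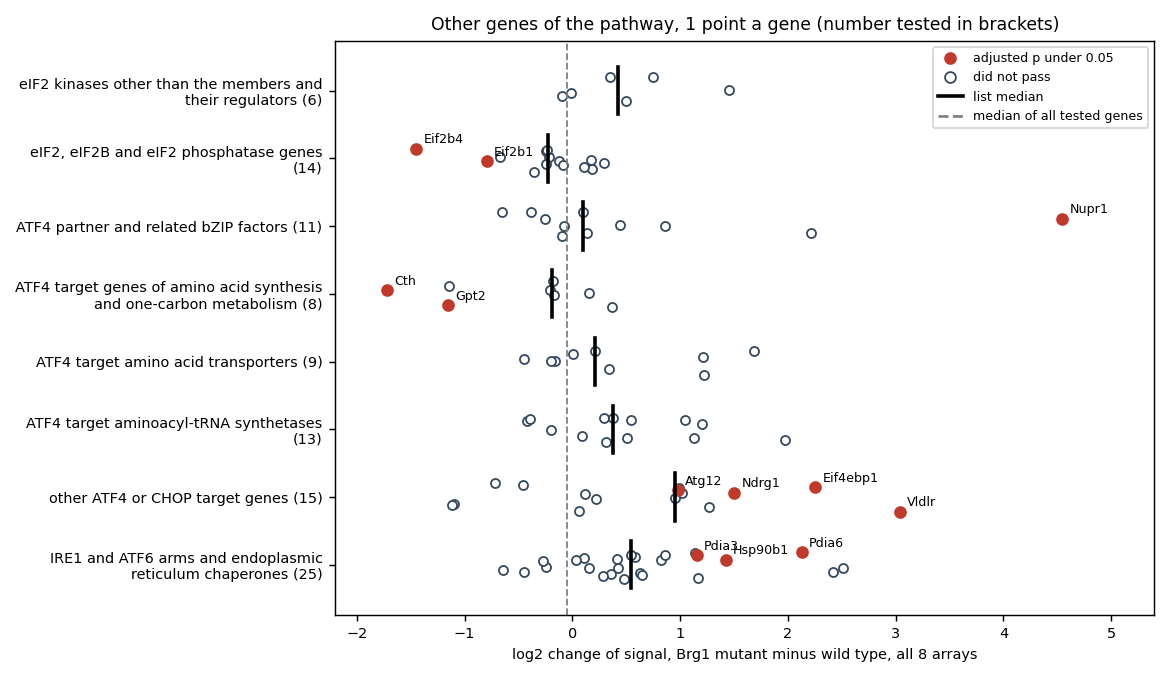
Log2 change of signal over all 8 arrays, Brg1 mutant minus wild type, for the 101 tested genes of the 8 pathway lists, 1 point a gene; filled red points passed at a limma adjusted p under 0.05, black bars are list medians and the dashed line is the median of all tested genes, -0.05. The red points are Eif2b4, Eif2b1, Cth and Gpt2 on the lower side and Nupr1, Vldlr, Eif4ebp1, Ndrg1, Atg12, Pdia6, Hsp90b1 and Pdia3 on the higher side.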

How the data were processed

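Affymetrix arrays of 8 samples were used, each of 20 embryos. The deposited values are array intensities, 1 linear MAS5 signal for every probe set, per the submitters' processing notes, and no MAS5 version is stated there. Since all arrays shared a trimmed mean of 150, they were not rescaled; 0 pairs of arrays were identical. Signals were floored at 1 and turned into log2 values of the deposited signals. Of the probe sets left once 64 controls were removed, the brighter 50% by mean log2 signal over all 8 arrays (5.25 or more) were tested, 22518 in all, 15 of the 19 member probe sets among them. Some named probe sets had a wild type mean below this and were tested only through their mutant arrays. They were Atf3, Asns 1433966_x_at, both of Nupr1, those tested of Vldlr and Slc7a3, Ndrg1 1456174_x_at and Eif4ebp1 1417562_at. The test was limma 3.58.1 under R 4.3.3, two-sided, using lmFit and then eBayes with its trend option, with Benjamini-Hochberg adjustment across the 22518 and a threshold of 0.05. The script was also tested on simulated data. SE is that of the fitted log2 change, and folds are that change on the linear scale. Background was bounded on each array by the 95th percentile of 27 Bacillus control probe sets, and "at least" folds were taken against this bound.

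Names were read from the platform's annotation, with 1 symbol for 34945 probe sets, several for 932 and none for 9160, and 34741 matched a RefSeq gene with 0 symbols changed. A gene stood in a list by its brightest tested probe set. Named genes are the members, their paralogs, Smarca4 and, per list, up to 6 genes that passed or else the 2 with the smallest adjusted p; Ero1a, Ddr2, 3 further eIF2B subunit genes and further markers were added after their values were seen, and the rule's marker genes Hsd3b1 and Vim are given in the closing section. The members and lists were chosen with earlier results of these data known. Same-numbered mutant and wild type samples did not deviate together (r from -0.177 to 0.0242), so numbers were not taken as pairs. With 4 samples a group this cannot exclude a pairing. Alternatives changed the scaling, the filter, the pseudocount (16), the trend or the array weights, added the replicate number as a block, or left out 1 array or 1 mutant pair.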

Additional observations from a re-analysis of the deposited data

Results flagged for a closer look

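Each group of 4 samples of each of the 19 member probe sets was searched for a sample far from the other 3, and chance flags about 1 in 20 of such groups, of which 38 were examined. On Sesn2 1451599_at, mutant replicate 1 read 454.9 and the next mutant sample 206.1. On Eif2ak4 1421389_a_at, wild type replicate 2 read 344.3 and the next wild type sample 857.8. On the dim Eif2ak3 1453505_a_at, wild type replicate 2 read 28.7 and the next wild type sample 38.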

How the results depend on the processing

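Over 283 refits of single members with 1 choice changed, no member changed sign. A changed filter, a dropped trend and the replicate block leave the log2 change as it was, so those refits could not change a sign. Calls held in 60 of 94 refits of the 5 called probe sets, and 22 of 189 refits of the other 10 passed. The whole array gave 671 higher and 807 lower probe sets in mutants, against 421 and 1557 under median centring, 494 and 794 under quantile normalization, 496 and 1104 under centring on the 75th percentile, 642 and 589 without a filter, 5099 and 6387 with array weights, and 4126 and 5232 without mutant replicates 1 and 2. The median log2 change of all tested probe sets was -0.05, and -0.22, -0.14 and -0.19 under these 3 scalings in that order. Member probe sets called higher numbered 0 of those left in the upper 30%, where Atf3 was not tested, 3 with array weights, 2 when mutant replicates 3 and 4 were left out, and 3 when replicates 1 and 2 were; those called lower numbered 9 with array weights and 9 without mutant replicates 1 and 2. Leaving out 1 array at a time gave 40 to 1411 higher and 33 to 1515 lower probe sets, 0 to 3 higher and 0 to 5 lower members, and a log2 change of Smarca4 from -1.41 to -1.10. Without mutant replicates 1 and 2 the lists held 3 calls of 6 (kinases), 5 of 14 (eIF2 and eIF2B), 7 of 11 (bZIP factors), 6 of 8 (amino acid synthesis), 7 of 9 (transporters), 9 of 13 (tRNA synthetases), 10 of 15 (other targets), 15 of 25 (endoplasmic reticulum) and 3 of 8 (paralogs), where 43.5% of all genes were called. Over all 8 arrays, with probe sets averaged by gene, the transporters held 1 call in place of 0. The eIF2 and eIF2B list then held 3 in place of 2, and the endoplasmic reticulum list 2 in place of 3. With the replicate number as a block, 10 probe sets were higher and 5 lower, and 0 members were called in either direction. Smarca4 then stood at -1.26 (limma adjusted p = 0.0693). Same-numbered samples did not deviate together, but with 4 samples a group this cannot show whether the numbers stand for shared collections. The cause of these shifts was not tested. Signal near background limits Atf3, Ddit3, Asns 1433966_x_at, Vldlr and Nupr1 1419665_a_at.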

Other observations

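Paralogs of the members gave 0 calls among 8 tested genes by limma, where 7.04% of all genes were called. At an unadjusted p under 0.05 stood 1 of them, and the share of all genes there is not given. Trib2 (log2 change 0.13, limma adjusted p = 0.816), the sestrin gene Sesn1 (0.14 and -0.04, limma adjusted p = 0.752 and 0.963) and Chac2 (-0.08, limma adjusted p = 0.945) did not pass, and neither Trib1 nor Jdp2 was bright enough to be tested. Atf5, a bZIP factor regulated like ATF4, read 172 and 166.3 on mutant replicates 3 and 4, 51 and 43.8 on replicates 1 and 2, and 35.8 to 61.8 in wild type (log2 change 0.86, limma adjusted p = 0.303).

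The probe sets of Sesn3 disagreed. Probe set 1449303_at read 348.6, 448.3, 432.1 and 464.1 in mutants, against 206.3, 293.6, 280.7 and 240.7 in wild type (log2 change 0.73, limma adjusted p = 0.0739). Probe set 1453313_at read 105.3, 81.4, 82.4 and 65.5 in mutants, against 130.3, 136.8, 147.8 and 134.7 in wild type (log2 change -0.73, limma adjusted p = 0.0971). Neither passed, and on neither did the groups overlap.

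The granulosa marker sums rest largely on a few bright genes, among them Hsd3b1 and Vim. Hsd3b1, a steroid-making enzyme of granulosa cells, read 8835.3 and 6889 on mutant replicates 3 and 4, 20.1 and 50.5 on mutant replicates 1 and 2, and at most 32.7 in wild type. Vim, an intermediate filament gene, read 4526.1 and 3107.2 on mutant replicates 3 and 4, 31.1 and 21.5 on mutant replicates 1 and 2, and at most 17.1 in wild type. Cyp11a1, which starts steroid synthesis, read 30.1 and 39.4 on mutant replicates 3 and 4, 49.5 and 36.5 on mutant replicates 1 and 2, and 25.8 to 59.7 in wild type. Summed markers of blood cells were 825.1 and 873.4 on mutant replicates 3 and 4 and 385.2 and 413.5 on mutant replicates 1 and 2. They were 320.2 to 410.3 in wild type. Of these 6 markers 3 were higher on both mutant replicates 3 and 4 than on any other array, and 3 were not. Those of sperm summed to 90.3 and 107.7 on mutant replicates 3 and 4 and to 215.4 and 230 on replicates 1 and 2. In wild type they summed to 156.5 to 183.1. Those of oviduct cells ranged from 503.9 to 798.1 in mutants and 410.6 to 689.6 in wild type.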
